A study of Mus musculus with 8 samples.

Results

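The genes described here encode the molecules that display peptides to T cells, the machinery that cuts, transports and loads those peptides, and the proteasome. Members were the probe sets whose platform annotation named 1 gene alone, with a symbol that began with H2- or with Psm followed by a letter from a to g and a digit, or that was B2m, Tap1, Tap2, Tapbp, Cd74, Ciita, Erap1, Nlrc5, Calr or Pdia3. This gave 170 probe sets for 82 genes, of 34945 probe sets for 18193 genes that named 1 gene alone and 45101 probe sets in all. All 82 members were matched by Entrez identifier to a current mouse gene, and 0 symbols differed. By role they were 11 genes of class II presentation, 14 class I chains, 7 genes of peptide supply and loading, 4 inducible or tissue-specific proteasome subunits, 8 alpha and 7 constitutive beta subunits of the 20S core, 6 ATPases and 14 other genes of the 19S cap, 4 activators or inhibitors and 4 assembly chaperones. The remaining 3 matched by symbol alone: H2-Ke6 lies in the MHC region and encodes a steroid dehydrogenase, Psmc3ip is a factor of meiotic recombination, and Psme3ip1 is named for its binding to the product of Psme3. A further 13 genes with a matching symbol, among them H2-T23, H2-Q7, H2-DMb1 and the activator subunit Psme2, shared their probe sets with other genes and were not members.

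Cochleae came from 8 mice of CBA/CaJ, an inbred strain with good hearing that carries the k haplotype of the mouse MHC. The ears of each mouse were pooled on 1 Affymetrix Mouse Genome 430 2.0 array, and all 8 arrays formed a single group of normal cochlea, with no second genotype or treatment. Every mouse had received a lethal dose of urethane (300 mg/kg) and cardiac perfusion with saline that washes out blood, and RNA came from the soft tissue, which holds the spiral ligament, the organ of Corti and the modiolus. Sex, age and hybridization batch were not used here, and a number given to a mouse is only a name. Values are MAS5 signals in arbitrary units, and they cannot be set against each other between probe sets as RNA amounts. A gene was read by its brightest probe set, leaving out those marked as open to cross-hybridization unless it had no other. It was called detected when that probe set was above the array's background threshold (37.3 to 60.5) on all 8 arrays. The 8 arrays correlated at r = 0.945 to 0.960 across probe sets, 0 pairs held identical values, and all 12 cochlear check genes, such as Coch and Otos, were detected. With 8 arrays and 1 array a mouse, differences between mice include those of dissection, amplification and hybridization.

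Class I molecules are found on most nucleated cells and show peptides made in the cytosol. The proteasome cuts these peptides, the TAP transporter moves them into the endoplasmic reticulum, and a loading complex fits them to a heavy chain paired with beta-2 microglobulin. Class II molecules are found mainly on macrophages, dendritic cells and B cells and show peptides from engulfed material, with the invariant chain Cd74 guarding the groove until it is loaded. Interferons raise the expression of both pathways and bring in 3 catalytic subunits that replace their constitutive counterparts to form the immunoproteasome. The cochlea holds resident macrophages in the spiral ligament, the stria vascularis and the modiolus.

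Promoter windows of RefSeq (build GRCm38.p6, of C57BL/6J mice, which carry another MHC haplotype) are shown for 5 members that stand for the groups below: a class II chain, the class I light chain, the peptide transporter, an induced and a constitutive catalytic subunit. Each runs 5′ to 3′ from 250 bases before to 50 bases after the annotated start, on the gene's own strand. Capitals mark the matches to 5 short motifs that were searched on both strands. These were the interferon-stimulated response element core (GAAA, any 2 bases, GAAA), the gamma-activated site core (TTCNNNGAA), the Y box (CTGATTGG), the cAMP response element (TGACGTCA) and the antioxidant response element core (TGACNNNGC). The last 2 share their first letters and could overlap, which they did not in these windows.
H2-Aa, chr17:34287774-34288073, minus strand: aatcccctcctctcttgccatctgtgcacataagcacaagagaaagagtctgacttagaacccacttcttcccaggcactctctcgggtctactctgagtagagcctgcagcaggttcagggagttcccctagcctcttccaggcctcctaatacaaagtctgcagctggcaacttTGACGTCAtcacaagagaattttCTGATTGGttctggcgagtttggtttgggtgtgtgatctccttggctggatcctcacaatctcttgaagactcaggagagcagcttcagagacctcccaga
B2m, chr2:122147437-122147736, plus strand: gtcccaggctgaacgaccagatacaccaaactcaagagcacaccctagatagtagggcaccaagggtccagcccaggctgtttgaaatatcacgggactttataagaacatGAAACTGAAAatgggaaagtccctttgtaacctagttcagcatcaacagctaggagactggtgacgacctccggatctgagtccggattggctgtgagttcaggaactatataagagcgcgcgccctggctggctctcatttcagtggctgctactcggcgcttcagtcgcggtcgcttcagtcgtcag
Tap1, chr17:34187306-34187605, plus strand: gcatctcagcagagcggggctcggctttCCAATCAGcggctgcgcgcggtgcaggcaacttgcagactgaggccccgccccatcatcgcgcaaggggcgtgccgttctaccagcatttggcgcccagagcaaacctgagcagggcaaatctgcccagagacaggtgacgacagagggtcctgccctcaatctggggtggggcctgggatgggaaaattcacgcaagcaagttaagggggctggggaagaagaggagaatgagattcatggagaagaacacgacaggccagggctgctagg
Psmb8, chr17:34197945-34198244, plus strand: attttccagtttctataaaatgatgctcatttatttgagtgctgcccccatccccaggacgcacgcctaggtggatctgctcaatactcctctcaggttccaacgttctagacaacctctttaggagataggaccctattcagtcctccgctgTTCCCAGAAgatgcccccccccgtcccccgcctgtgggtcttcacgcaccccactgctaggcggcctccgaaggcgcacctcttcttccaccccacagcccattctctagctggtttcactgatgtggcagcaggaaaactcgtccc
Psmb5, chr14:54617946-54618245, minus strand: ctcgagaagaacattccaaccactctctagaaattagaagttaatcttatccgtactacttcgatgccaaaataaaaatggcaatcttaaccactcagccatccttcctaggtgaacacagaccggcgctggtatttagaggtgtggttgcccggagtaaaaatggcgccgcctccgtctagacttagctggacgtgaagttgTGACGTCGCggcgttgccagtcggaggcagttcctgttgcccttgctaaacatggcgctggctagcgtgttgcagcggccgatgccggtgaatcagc

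H2-Aa thus held the Y box and the cAMP response element, 2 of the elements that class II promoters are known for. B2m held the interferon-stimulated response element core, Psmb8 the gamma-activated site core, Psmb5 the antioxidant response element core and Tap1 the Y box. The window of Tap1 overlapped that of Psmb9, the neighbour transcribed the opposite way, by 275 bases, with 226 bases between the annotated starts, so the 2 windows hold mostly the same sequence. A window was at hand for 63 of the 82 members. The Y box was found for 13 of the 63, among them H2-Aa, H2-Eb1, H2-K1, H2-D1, Tap1 and Psmb9, and for 4.7% of the 27025 genes with a window. The Y box of Tap1 lies in the stretch it shares with Psmb9, so 1 site counts for both. The interferon-stimulated core was found for 7 (3.99% of all genes), the gamma-activated core for 5 (9.55%), the antioxidant core for 11 (14.0%) and the cAMP element for 1 (2.03%). A match describes the letters in these windows, and these matches were counted with no test.

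Of the 82 members 63 were detected (76.8%), against 65.1% of all 18193 genes on the array. A further 10 members were above background on some arrays and 9 on none. Detection split by role. All 7 constitutive beta subunits, 6 ATPases, 14 other genes of the cap, 4 assembly chaperones and 4 activators or inhibitors were detected, as were 7 of 8 alpha subunits. Of the 11 class II genes 4 were detected, and of the 14 class I chains 5. The 9 members above background on no array were the class II genes Ciita, H2-Ea, H2-Eb2 and H2-Oa and the class I heavy chain genes H2-D4, H2-M9, H2-M10.1, H2-Q2 and H2-T3.

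Transcripts of class II presentation were present in every cochlea. Cd74, the invariant chain, ranged from 971 (mouse 4) to 1726 (mouse 6), with a median of 1469 and a mean of 1409 ± 276 (SD, n = 8). Its lowest values were in mice 4 and 2, and mice 6, 8 and 7 were the highest. H2-Aa, the alpha chain of the class II A molecule, ranged from 268 (mouse 4) to 553 (mouse 5), with a median of 402. H2-Ab1, its beta chain, ranged from 82.8 (mouse 3) to 146.5 (mouse 5), with a median of 100.6. H2-Eb1, the beta chain of the E molecule, ranged from 60.4 (mouse 2) to 221 (mouse 5), with a median of 143. At the probe sets read here all 3 chains were thus highest in mouse 5, and mouse 2 lay far below the others for H2-Eb1 alone. Other probe sets did not all place mouse 5 first. The next of H2-Aa was also highest there (540), and a dimmer detected probe set was highest in mouse 6 (372, with 274 in mouse 5). The dimmer probe sets of H2-Ab1, above background in 7 and 3 mice, were highest in mouse 6 (85.1) and mouse 7 (61.8).

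None of the other 7 class II genes was above background in every mouse. H2-DMa, a chain of the molecule that exchanges the Cd74 fragment for peptide, was above background in 7 mice and under it in mouse 4 (51.1 to 109, median 90.5). H2-DMb2 was above it in 6 mice, with its highest values in mice 5 (114), 6 (89.5) and 3 (73.5). Its probe set marked as open to cross-hybridization was highest in the same mice (145, 102 and 71.5). Its remaining probe set was highest in mice 3 (96.2) and 4 (57.3), with 36.5 in mouse 5. H2-Ob, a chain of the molecule that restrains H2-DM and is known from B cells, was above it in 3, namely mice 3 (100.9), 6 (85.0) and 5 (71.0). Ciita, the master activator of class II transcription, ranged from 4.2 to 38.3, with a median of 17.8 and 0 arrays above background. H2-Ea, the alpha chain that pairs with the product of H2-Eb1, also stayed under background on every array (11.3 to 41.6, median 29.6), while the CBA strain is known to express the E molecule. A signal under background says nothing about which transcripts the probes could have read in this strain.

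Markers of the cells that carry class II were read beside these values. Of 19 macrophage genes 18 were detected, with the highest signals for Lyz2, Csf1r, Tyrobp and Mrc1, and only Itgam was on no array. Their summed signal ranged from 8852 (mouse 7) to 12932 (mouse 5). Without Lyz2, the brightest, the sums of mice 3, 6 and 5 were 7887, 7859 and 7803, and of the 18 genes 6 were highest in mouse 3 and 4 each in mice 5 and 6, so no single mouse led the list. Of 12 dendritic cell genes 5 were detected, led by Fscn1, Cd83, Zbtb46 and Irf4, with sums of 5831 to 7788, and Itgax, Xcr1, Ccr7 and Batf3 were on no array. Of 9 B cell genes 0 were detected, with sums of 162 (mouse 7) to 709 (mouse 6) and Pax5, Cr2 and Blk on no array. The other 6 were above background on some arrays, Cd79b on 7 (13.3 to 191), Spib on 5 and Ms4a1 on 4. Cd79b was highest in mice 3, 6 and 5, the mice in which H2-Ob and the probe set read for H2-DMb2 were highest. This order was not particular to B cell genes, since the neutrophil sums below were highest in the same mice. Of 12 T and natural killer cell genes 2 were detected, Cd2 and Prf1, with sums of 789 to 1049, and Cd3e, Cd3g, Cd5 and Ncr1 were on no array. Neutrophil genes (5 of 8 detected) summed to 1791 (mouse 7) to 28123 (mouse 3), with mice 6 (25712) and 5 (19440) next. Endothelial genes (7 of 9 detected) summed to 5981 to 7920. The part of these cells in the class II signals was not tested, and in bulk tissue fewer cells of a type and less RNA per cell cannot be told apart.

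**Figure D1:**
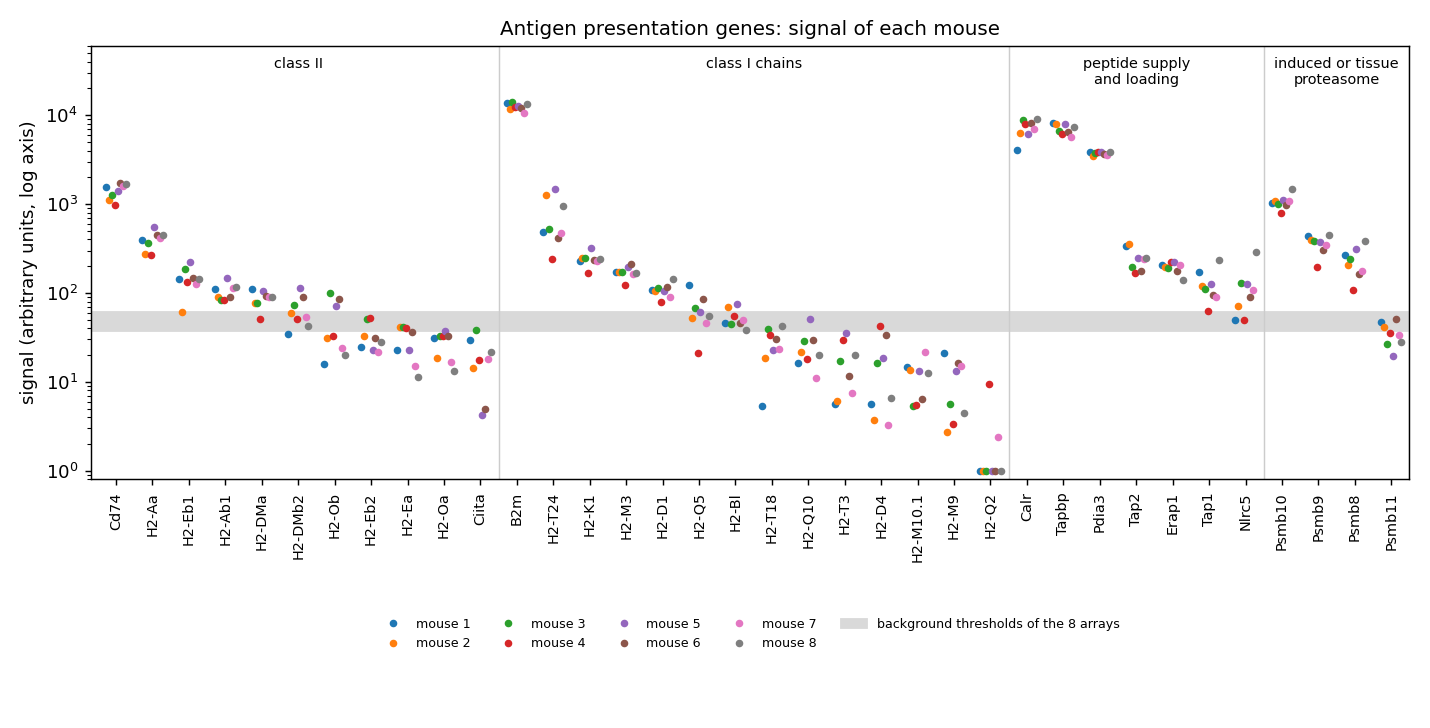
Signal of each of the 8 mice (points, log axis) for the class II, class I, peptide loading and inducible proteasome genes, sorted within a group by mean, with the range of the 8 background thresholds (37.3 to 60.5) as a grey band. Cd74, B2m and the loading chaperones lie far above the band in every mouse, and Ciita, H2-Ea, H2-Eb2, H2-Oa and 5 class I heavy chain genes stay under the threshold of every array.

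Of the class I chains, B2m, the light chain shared by all class I molecules, had a log2 SD of 0.14 between mice. It ranged from 10451 (mouse 7) to 14006 (mouse 3), with a median of 12539 and a mean of 12503 ± 1153 (SD, n = 8), and mice 3, 1 and 8 were the highest. A second bright probe set of B2m was also lowest in mouse 7 (6840) but highest in mouse 5 (8419), with 7513 in mouse 1. The classical heavy chain H2-K1 ranged from 167 (mouse 4) to 324 (mouse 5), with a median of 237, and the other 6 mice lay close together. H2-D1, the second classical heavy chain, ranged from 78.2 (mouse 4) to 142 (mouse 8), with a median of 107. H2-M3, a chain known in mice for presenting formylated peptides, ranged from 124 (mouse 4) to 211 (mouse 6). These 3 heavy chains were each lowest in mouse 4, and their highest mouse differed.

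H2-T24, a class I heavy chain gene of the T region, varied more between mice than any other detected member. Its signal was 240 in mouse 4, between 411 and 518 in mice 6, 7, 1 and 3, 938 in mouse 8, 1264 in mouse 2 and 1478 in mouse 5. The highest mouse was 6.16-fold above the lowest, and the SD of the log2 signal was 0.89, larger than that of 99.4% of the 500 detected genes of most similar signal. The other class I genes H2-Q5, H2-Bl, H2-Q10 and H2-T18 were above background on some arrays. Probe sets of H2 genes can read related transcripts: H2-K1 had only probe sets marked as open to cross-hybridization, and H2-D1 was read here by a dim probe set of 9, while 3 so marked were brighter. The brightest of those had 1474 ± 223 (SD, n = 8) and was also lowest in mouse 4 (1043), with its highest value in mouse 6 (1829) in place of mouse 8. The other 2 were lowest in mouse 1 (289, with 354 in mouse 4) and mouse 5 (168, with 172 in mouse 4). The next detected probe sets of H2-K1 were lowest in mouse 7 (148.4, with 148.7 in mouse 4) and mouse 8 (76.3, with 117 in mouse 4).

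Among the genes of peptide supply and loading, both subunits of the peptide transporter varied between mice. Tap1 ranged from 63.3 (mouse 4) to 237 (mouse 8), with a median of 114.5, and mouse 1 was the next highest at 174. Tap2 ranged from 166 (mouse 4) to 354 (mouse 2), with a median of 246. Both were thus lowest in mouse 4, while their highest mouse differed. Nlrc5, the activator of class I transcription, was above background in 7 mice, with a median of 99.6. It was 288 in mouse 8, more than any other mouse, and 50.2 in mouse 4, the array where it was under the threshold of 52.9, although mouse 1 had the lowest value (49.0).

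The chaperones of the loading complex were bright in every mouse. Tapbp, or tapasin, which bridges the heavy chain and the transporter, ranged from 5711 (mouse 7) to 8162 (mouse 1). Pdia3, an oxidoreductase of the complex, was among the 5 steadiest detected members, at 3506 to 3888 with a median of 3766. Calr, or calreticulin, ranged from 4064 (mouse 1) to 9108 (mouse 8), with a log2 SD of 0.38 that was larger than in 99.4% of the 500 detected genes of most similar signal. Its 2 brighter probe sets, marked as open to cross-hybridization, were also lowest in mouse 1, with smaller log2 SDs of 0.19 and 0.22. Erap1, which trims peptides in the endoplasmic reticulum, was lowest in mouse 8 (140.1) and highest in mouse 4 (223.8), the reverse of Tap1 at both ends. Mouse 5 had nearly the same signal (223.1) as mouse 4. A dim probe set of Erap1, above background in 2 mice, was lowest in mouse 4 (31.9).

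The 3 inducible catalytic subunits of the proteasome were detected in every cochlea and ordered the mice alike at both ends. Psmb8, which replaces Psmb5, ranged from 108 (mouse 4) to 388 (mouse 8), with a median of 223 and a mean of 233 ± 89.7 (SD, n = 8). Psmb9, which replaces Psmb6, ranged from 196 (mouse 4) to 443 (mouse 8), with a median of 378, and mouse 1 had 440.4. Psmb10, which replaces Psmb7, ranged from 791 (mouse 4) to 1466.5 (mouse 8), with a median of 1046. All 3 were thus lowest in mouse 4 and highest in mouse 8, and the median correlation of their 3 pairs across mice was 0.87. That of all 1953 pairs of detected members was 0.23 and that of all pairs of detected genes 0.02. Psmb11, the subunit of the thymus, was above background on 1 array, as was Psma8, the alpha subunit of the testis.

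Mouse 4 was the lowest of the 8 for 9 of the 14 detected genes of class I, loading and the inducible subunits, while 11.9% of all detected genes were lowest in that mouse. These were H2-K1, H2-D1, H2-M3, H2-T24, Tap1, Tap2, Psmb8, Psmb9 and Psmb10. Of these 9 genes 7 had a single detected probe set, and of all their 14 detected probe sets 10 were lowest in mouse 4, the exceptions being 2 each of H2-D1 and H2-K1. Mouse 8 was the highest for 6 of the 14, against 9.36% of all detected genes. These counts were made after the values were seen and carry no test. The array of mouse 4 had a 3′ to 5′ ratio, which grows as RNA degrades, of 1.49 for Gapdh (1.39 to 1.54 over the 8 arrays) and of 2.23 for Actb, the highest of the 8 (1.86 to 2.23). The array of mouse 8 had 1.49 and 2.09. Its background threshold of 37.3 was the lowest, while that of mouse 4 was 52.9. The part of RNA quality in these counts was not tested.

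A list of 27 genes of the interferon response, most of them known to be induced by interferons, had the same mice at its ends. It also held the receptor genes Ifnar1, Ifnar2, Ifngr1 and Ifngr2 and the ligand gene Ifng. Of the 27 genes 24 were detected, led by Ifit1, Ifit3, Irf2 and Rsad2, while Mx2 was above background on some arrays and Socs1 and Ifng on none. The mean deviation of the 24 from their means over mice, on the log2 scale, was 0.95 in mouse 8, 0.45 in mouse 5, 0.30 in mouse 2, 0.04 in mouse 3, -0.33 in mouse 7, -0.36 in mouse 1, -0.43 in mouse 6 and -0.63 in mouse 4. Of the 24 genes 14 were lowest in mouse 4 and 14 were highest in mouse 8. Without the receptors and the ligand 20 detected genes remained, with mean deviations of 1.17 in mouse 8 and -0.74 in mouse 4. The summed signal of the whole list ranged from 10369.5 (mouse 4) to 41487 (mouse 8). Mouse 1 broke the likeness, since Tap1, Psmb8 and Psmb9 were above their means there. In mouse 2 the list was at 0.30, while Psmb8 (208) was under its median (223) and Tap1, Psmb9 and Psmb10 were only slightly above theirs. None of the 24 genes is a member, and their part in the members' values was not tested.

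**Figure D2:**
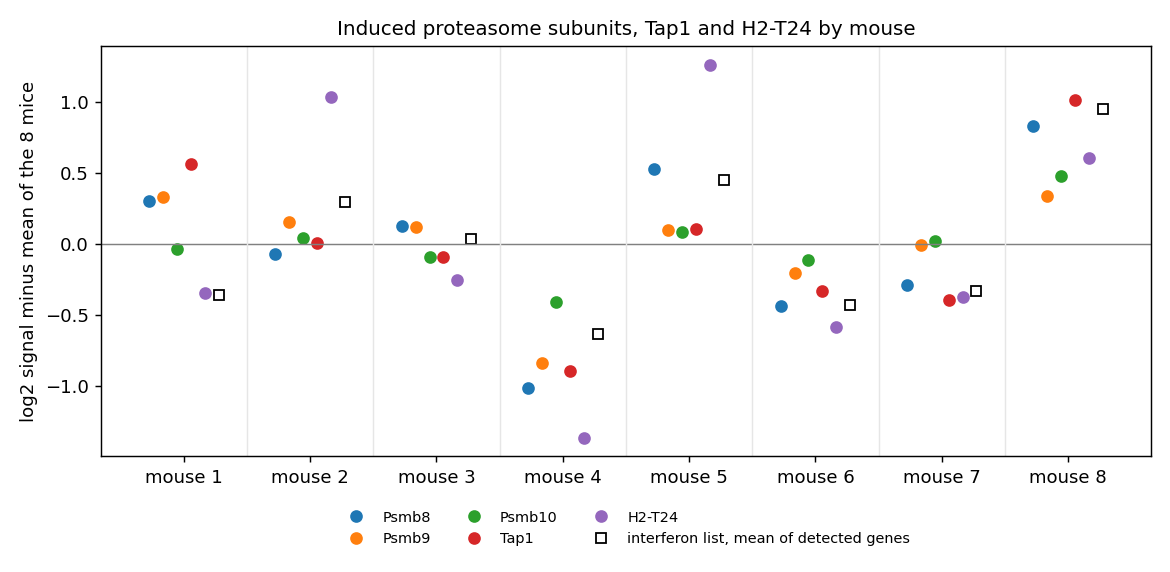
Log2 signal minus the mean of the 8 mice for Psmb8, Psmb9, Psmb10, Tap1 and H2-T24 (filled circles) and the mean of the same deviation over the 24 detected genes of the interferon list, receptors included (open squares), for each mouse. Mouse 4 holds the lowest point of all 5 genes and of the list, and mouse 8 the highest of Psmb8, Psmb9, Psmb10, Tap1 and the list, while H2-T24 is highest in mouse 5.

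Whether members varied together was tested by the correlation of every detected gene with Cd74, B2m, Psmb8 and Psmb5 across the 8 mice, in an exact two-sided permutation test over all 40320 pairings. After Benjamini-Hochberg adjustment over 11850 genes, 0 genes and 0 members passed 0.05 for any of the 4. The smallest adjusted p was 0.294 for Cd74, 0.259 for B2m, 0.294 for Psmb8 and 0.366 for Psmb5. With 8 mice the smallest possible p is 2.5e-05, so several genes would have to reach it together to pass. Counts at an unadjusted p under 0.05 are given below as a description. They name no member as shown to vary with another.

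For Psmb8, 9 of the 62 other detected members had an unadjusted exact permutation p under 0.05, all with r above 0. Of all 11850 genes 2.84% had such a p, and 1.32% with r above 0. They were Tap1 (r = 0.92), Psmb9 (0.89), Psmd5 (0.89), Psmb10 (0.87), H2-D1 (0.80), Psme1 (0.75), H2-T24 (0.74), H2-K1 (0.74) and Psme3 (0.71), each with an adjusted p of 1.0. Counted afresh over the members detected under each setting, their number was 5 without mouse 7 and 1 when each gene was read by the mean of all its probe sets. No share of all genes was counted beside these 2 numbers. For Tap1 the unadjusted exact p was 0.00166, and Spearman's rho was 0.93 (exact permutation p = 0.00223). For Psmb9 the exact p of r was 0.00151 and rho was 0.83 (exact permutation p = 0.0154). Without mice 4 and 8, the 2 farthest from the median of Psmb8, r was 0.75 for Tap1, 0.72 for Psmb9, 0.45 for Psmb10 and 0.14 for H2-D1. Leaving out these mice narrows the range of Psmb8, which can lower r by itself. For H2-D1 r was 0.26 to 0.91 over 15 alternatives in processing or with 1 mouse left out.

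Of the other genes, those nearest to Psmb8 were Sp100 (r = 0.94), a nuclear body protein known to respond to interferon, Mlph (0.92), Tmem70 (0.91), Igtp (0.91), an interferon-induced GTPase, and Ndufb3 (0.91). All 5 had an adjusted p of 1.0 in the same exact permutation test. H2-T24 was added to these 4 genes after its values were seen, and again 0 of 11850 genes passed, with a smallest adjusted exact permutation p of 0.176 and 304 genes (2.57%) at an unadjusted p under 0.05. The genes nearest to it were Ly6e (r = 0.98), Irf7 (0.98), Uba7 (0.97), Oasl2 (0.97) and Rtp4 (0.97), genes known as induced by interferon. Of the members, H2-K1 (0.85), Psmd10 (0.77), Psmc3ip (0.76), Psmb8 (0.74) and Psmb10 (0.71) had an unadjusted exact permutation p under 0.05 with H2-T24, as had 1.58% of all genes with r above 0.

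For Cd74, 2 of the 62 other members had an unadjusted exact permutation p under 0.05, against 3.25% of all genes. H2-Aa had r = 0.80 (exact p = 0.0189) and rho = 0.74 (exact permutation p = 0.0458). Without mice 2 and 4, the 2 farthest from the median of Cd74, r was 0.22. Leaving out these mice narrows the range of Cd74, which can lower r by itself. Over 16 alternatives in processing or with 1 mouse left out, r was 0.67 to 0.97. Psmg2 had r = -0.73. H2-Ab1 (r = 0.49) and H2-Eb1 (0.33) did not reach that level, and H2-Eb1 had r = -0.11 without mouse 2. The number of members with r above 0 at that level was 1 over all mice, 0 without mouse 2 or mouse 4, 2 without mouse 1 or mouse 7 and 4 without mouse 6. With a mouse left out, the share of all genes was not counted. The other genes nearest to Cd74 were Slc6a6 (r = 0.95), Phf21a (0.93), Hipk1 (0.92), Braf (0.92) and Ufd1 (0.91), each with an adjusted p of 1.0 by the exact permutation test.

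For B2m, 3 of the 62 other members had an unadjusted exact permutation p under 0.05 (4.46% of all genes). Psma6 had r = 0.82 and Psmc3 0.74, and Psmf1 -0.72, while H2-D1 had 0.48 and H2-K1 0.11. Neither heavy chain reached that level with the light chain. Counted afresh over the members detected under each setting, those with r above 0 at that level numbered 2 over all mice (2.51% of all genes). They numbered 4 without mouse 1, 1 without mouse 2, 4, 5, 6 or 7, and 10 when arrays were scaled to the median of detected genes. The share of all genes was not counted under these alternatives, so the rise to 10 cannot be called particular to members. The genes nearest to B2m were Ptgds and Twsg1 (r = 0.97 each) and Atp5a1, Ankrd23 and Rps3a1 (0.96 each), with adjusted exact permutation p-values of 0.259.

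**Figure D3:**
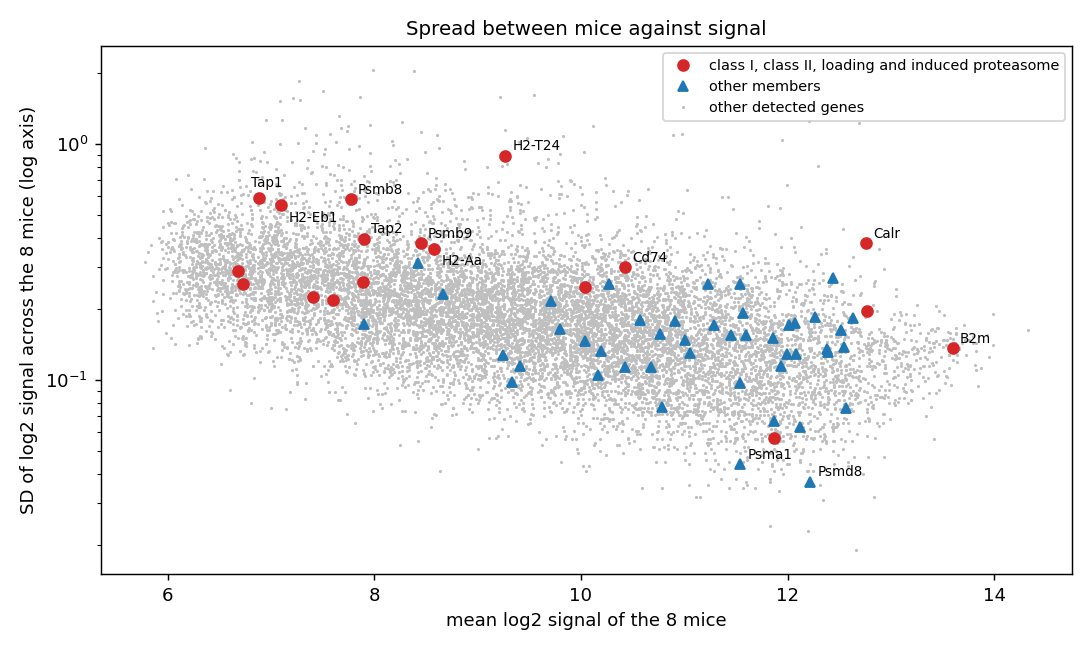
SD of the log2 signal across the 8 mice (log axis) against the mean log2 signal, for class I, class II, loading and inducible proteasome genes (red circles), the other detected members (blue triangles) and all other detected genes (grey points). H2-T24, Tap1, Psmb8 and H2-Eb1 lie at the upper edge of the cloud, with SDs of 0.89, 0.59, 0.58 and 0.55, and Psmd8 and Psma1 at the lower edge, at 0.04 each.

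Spread between mice is given by role, first as measured and then beside genes of like signal. The median log2 SD of the detected members was 0.38 for the inducible subunits, 0.33 for class II, 0.30 for loading and 0.25 for the class I chains. It was 0.11 for the alpha subunits, 0.14 for the constitutive beta subunits, 0.15 for the 19S ATPases, 0.16 for the other 19S genes, 0.12 for activators and inhibitors and 0.15 for assembly chaperones. Over all detected members it was 0.17, against 0.18 over all detected genes. Dim probe sets tended to have larger SDs, so each SD was set beside those of the 500 genes of most similar signal. The median share of such genes with a smaller SD was 88.4% over the 18 detected genes of class I, class II, loading and the inducible subunits. It was 64.8% over the 34 constitutive members. How much of the difference in SDs went with signal was not measured. Both kinds held members at either end. Among the first, Tap1 reached 96.8%, Psmb8 95.4%, Psmb9 91.4%, Tap2 88.2% and Psmb10 84.0%. B2m (63.6%), H2-K1 (61.8%) and H2-Ab1 (50.8%) were nearer the middle, and Erap1 (37.2%), H2-M3 (35.8%), H2-D1 (34.8%) and Pdia3 (7.6%) were below it. Among the constitutive members, Psmb7 reached 96.8%, Psmd4 93.8%, Psmd1 90.8% and Psmc3 86.8%, while Psmd8 (0.6%) and Psma1 (1.4%) were at the low end.

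The constitutive proteasome was detected almost whole. Its 34 detected members had a median log2 SD of 0.15, and 21 of them had a larger SD than 50% of the genes of most similar signal. The 3 constitutive catalytic subunits were bright in each mouse. Psmb5, the chymotrypsin-like subunit, ranged from 3782.5 (mouse 7) to 5617 (mouse 1), with a median of 4227. Psmb6, the caspase-like subunit, ranged from 5388.5 (mouse 7) to 7439 (mouse 1), with a median of 5858. For both, mouse 1 stood far above the other mice, which lay close together. Psmb7, the trypsin-like subunit, was lowest in that mouse, at 4100.5 in mouse 1 and 6783 in mouse 3, with a median of 5988. The 5 detected members with the smallest spread were Psmd8, a lid subunit of the cap (4650 to 5015, median 4711.5), Psma1 (2877 to 3088, median 2969), Pdia3, Psma3 (4155 to 4697, median 4465) and the structural beta subunit Psmb4 (3467 to 4003, median 3725), with log2 SDs of 0.04, 0.04, 0.06, 0.06 and 0.07. A brighter probe set of Psmb4, marked as open to cross-hybridization and so left out, had a log2 SD of 0.09.

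All 6 ATPases of the cap, Psmc1 to Psmc6, which unfold the substrate, were detected, with log2 SDs of 0.08 (Psmc5) to 0.19 (Psmc1). Of the 14 other genes of the cap, the widest were Psmd9, a chaperone of cap assembly (237 to 494), Psmd1, a scaffold subunit (2103 to 3542.5), and Psmd4, a ubiquitin receptor (2548 to 4490), each highest in mouse 1. Psmd14, the deubiquitinase of the lid, ranged from 2733 to 3877, and Psmd2, a second scaffold subunit, from 2743 to 3330. Psmd5 and Psmd10 are chaperones of cap assembly as well, with log2 SDs of 0.11 and 0.10. Of the activators, Psme1, a subunit of the interferon-inducible cap, ranged from 3892 (mouse 4) to 5034 (mouse 1), the nuclear activator Psme3 from 1468.5 to 1896, and Psme4 from 1636 to 2405. The inhibitor Psmf1 ranged from 623 to 809. The assembly chaperones Psmg1, Psmg2, Psmg3 and Psmg4 had log2 SDs of 0.13, 0.10, 0.22 and 0.17.

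**Figure D4:**
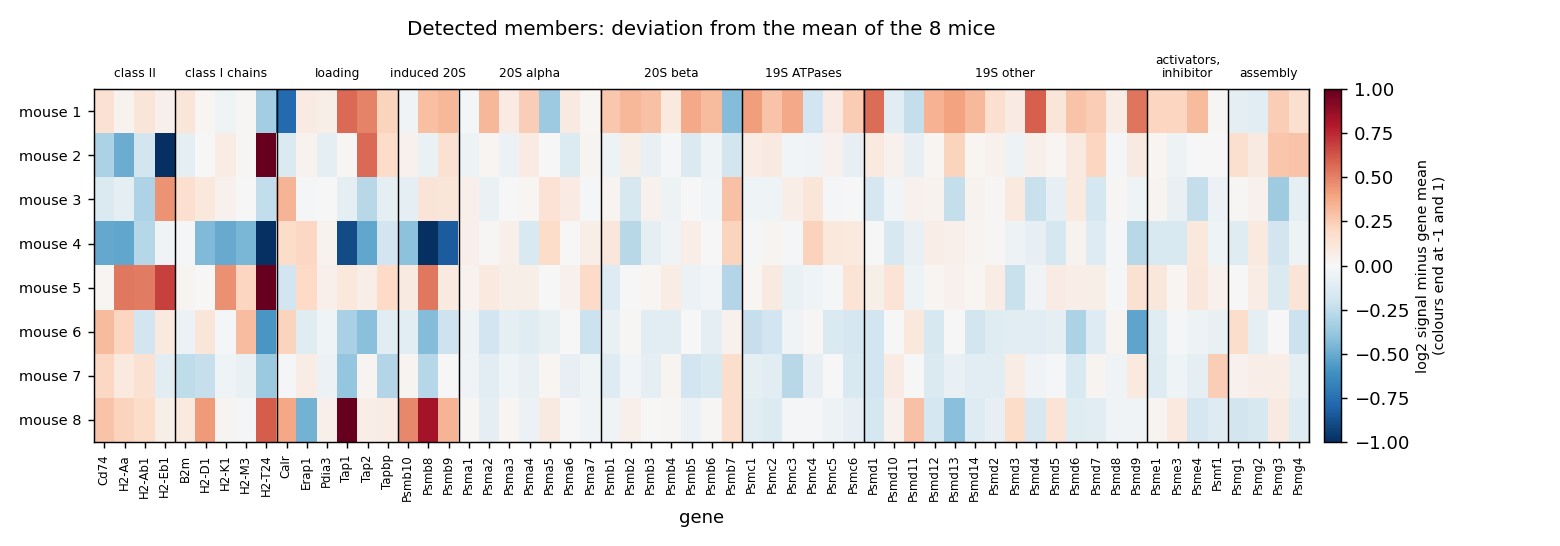
Log2 signal minus the mean of the 8 mice for each detected member that has a role in presentation or the proteasome (columns, by role) in each mouse (rows), with colours ending at -1 and 1. Mouse 4 is blue over the class I heavy chains, Tap1, Tap2 and the inducible subunits, mouse 8 is red over Tap1 and the inducible subunits, and mouse 1 is red over most constitutive subunits and blue at Calr, Psmb7 and Psma5.

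Of the 34 detected constitutive subunits of the core and the genes of the cap, 24 were highest in mouse 1, where 33.3% of all detected genes were also highest and 23.9% lowest. When each gene was read by the mean of its probe sets the count was 14. The median correlation of the 561 pairs of these 34 genes was 0.46. With Psmb5, 9 of 62 members had an unadjusted exact permutation p under 0.05 (9.94% of all genes), 8 of them with r above 0 (4.63% of all genes), and the smallest adjusted p of a member was 0.392. Psmb6 had r = 0.92 (exact p = 0.0111) and rho = 0.62 (exact permutation p = 0.115), and r was 0.10 without mice 1 and 7. Counted afresh over the members detected under each setting, those with r above 0 at that level numbered 1 without mouse 1, 3 without mouse 7, 5 without mouse 4 and up to 11 (without mouse 6). Shares of all genes were not counted with a mouse left out. Psmb8 and Psmb9 had r = 0.04 and 0.05 with Psmb5. The other genes nearest to Psmb5 were Stk39 (r = 0.98), Ucma and Park7 (0.97 each) and Ss18l2 and Drosha (0.96 each), with adjusted exact permutation p-values of 0.366 to 0.378.

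Second probe sets gave another account of mouse 1. For 21 members with 2 detected probe sets, the correlation of the 2 brightest across mice was tested by a one-sided exact permutation test on all 4796 such genes. After adjustment 0 of the 21 passed, against 325 of all genes (6.78%), and 2 of the 21 had an unadjusted p under 0.05. Those 2 were Psmd4 (r = 0.96, adjusted exact permutation p = 0.0607) and Psmc3ip (r = 0.86, adjusted exact permutation p = 0.0606). The count of all genes ran from 0 to 535 over 15 alternatives, and was 0 without mouse 1 and 0 without mouse 2. With any 1 mouse left out only 5040 pairings remain and the smallest possible p is larger, so these counts do not show dependence on a given mouse. The median correlation was -0.05 for the members, against 0.30 for all genes, and r was below 0 in 12 of the 21 (57.1%), against 31.7% of all genes.

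Mouse 1 lay on opposite sides of the other mice at the 2 probe sets of 15 of the 21 members (71.4%), against 40.4% of all genes. For Psmd9 it was 0.61 above the mean of the others on the log2 scale at the brightest probe set and at -1.03 at the next. Psmd13 had 0.46 and -0.96, and Psmc4, an ATPase, had -0.22 and 0.68. The next probe sets of Psmd9 and Psmd13 were dim, with 57.5 and 37.7 in mouse 1, the latter at the edge of background. A brighter probe set of Psmd13, marked as open to cross-hybridization and so left out, was highest in mouse 1 (874). The next probe set of Psmc4 was bright, with 3083 in mouse 1. For Psmd4 (0.68 and 0.43) and Psmb3 (0.33 and 0.54) mouse 1 was above the others at both. The array of mouse 1 had the highest 3′ to 5′ ratio for Gapdh (1.54), with 2.03 for Actb, and a background threshold of 37.7. Whether the probe sets differ in their place along the transcript was not tested.

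**Figure D5:**
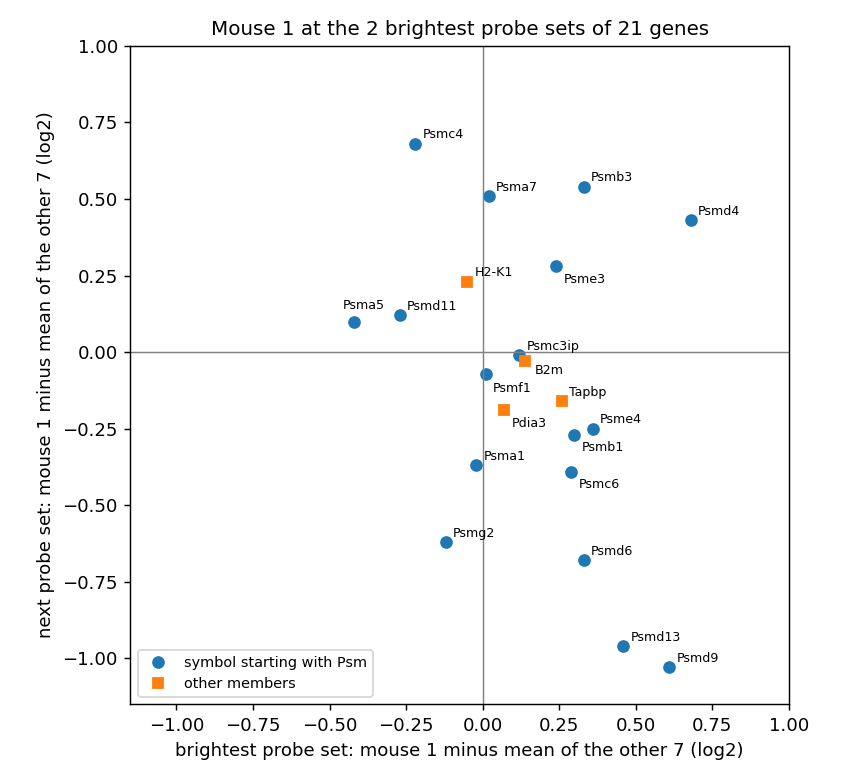
Log2 signal of mouse 1 minus the mean of the other 7 mice at the brightest probe set (horizontal axis) and the next brightest (vertical axis), for the 21 members with 2 detected probe sets (circles for proteasome symbols, squares for other members). Points in the upper left and lower right quadrants, 15 of the 21, are genes for which the 2 probe sets put mouse 1 on opposite sides.

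The 3 lists of the same pathways outside the members held 19, 14 and 22 genes, of which 17, 13 and 13 were read here. Most of those read were detected, beside 65.1% of all genes on the array. Of 17 further genes of class II processing and regulation 14 were detected, led by the cathepsins Ctsb (7919 ± 846), Ctsl (6689 ± 630.0) and Ctss (3554 ± 408) and the Y box factor subunit Nfyc (2908 ± 206; SD, n = 8 each). The membrane ligase Marchf1 and the costimulators Cd80 and Cd86 were above background on some arrays only. Of 13 class I-like genes and further loading factors 11 were detected, led by the chaperones Hspa5 (7544 ± 689) and Canx (7072 ± 331) and the peptidases Nrd1 and Npepps, while Azgp1 was above background on 1 array and Cd1d2 on none. All 13 genes read from the list of the ubiquitin-proteasome system were detected, led by the cap subunit Sem1 (7195 ± 667), the core assembly factor Pomp (6615 ± 549), Ubqln2 and Nfe2l1, a factor known for raising proteasome genes. Their median log2 SDs were 0.14, 0.16 and 0.12, against 0.18 for all detected genes, and the median correlation within each of the 3 lists lay between -0.06 and 0.02.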

How the data were processed

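RNA from the cochlear soft tissue of 8 mice was amplified with the Ovation system, labelled with biotin and hybridized to 1 array per mouse, per the labels' protocols. The deposited values are linear intensities per probe set, made with MAS5 per the submitters' processing notes (version not given in the sources used here). These deposited intensities had been brought to a common level: the mean without the lowest and highest 2% of probe sets was 500.0 on each array. The table held 0 other columns of samples.

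The members, the gene lists and the tests were chosen with earlier results of these data known. Gene names came from the platform annotation, which named 1 gene for 34945 probe sets, several for 932 and none for 9224. Signals under 1 were set to 1 before log2. Each gene was represented by the probe set of highest mean log2 signal, with probe sets marked _x_at, which are open to cross-hybridization, only where a gene had no other. Background was set per array at the 95th percentile of 83 probe sets of 74 olfactory, vomeronasal and bitter taste receptor genes. Agreement of the 2 brightest detected probe sets was tested one-sided and correlation with Cd74, B2m, Psmb8 and Psmb5 two-sided, by exact permutation tests over all pairings of the mice, with Benjamini-Hochberg adjustment over all genes tested, and with a threshold of 0.05. Values are given for the markers, the class II chains, classical class I chains, catalytic subunits, Tap1, Tap2, Nlrc5 and the 5 widest and 5 steadiest detected members. From each other list the 4 brightest detected genes and those not detected are named, and for each correlation the 5 nearest other genes. The genes of the T region, Calr, Erap1 and the cap that are described beyond this rule, and the counts by mouse, were chosen after the values were seen. The tests were checked on simulated data. Promoter windows came from RefSeq. Alternatives were quantile normalization, median scaling, the mean of all probe sets, an offset of 32 before log2, _x_at allowed, the 99th percentile, above threshold on at least 4 arrays, no filter, and each mouse left out. Precision is limited by the 8 arrays. Software was scipy 1.17.1, numpy 2.4.6, pandas 2.3.3 and matplotlib 3.10.9 on Python 3.11.15.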

Additional observations from a re-analysis of the deposited data

Results flagged for a closer look

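In 4 of 21 members tested for a mouse far from the others, the gap to the nearest mouse was a larger part of the range of the 8 than Dixon's 95% critical value. Chance alone flags about 1 in 20 groups that are independent and not chosen by their spread. Some of the 21 were chosen as the widest or steadiest members in these data. Psmb5 and Psmb6 were both flagged on the array of mouse 1, and their correlation across mice was 0.92. Of all detected genes 33.3% were highest in mouse 1. The share of all detected genes flagged by this rule was not counted, so the 4 flags cannot be set against chance. H2-Eb1, the beta chain of the class II E molecule, had its lowest signal in mouse 2, at 60.4. Psmb9, an inducible proteasome subunit, had its lowest in mouse 4, at 196.3. The constitutive subunits Psmb5 and Psmb6 had their highest in mouse 1, at 5616.7 and 7438.9. None of these 4 genes had a second detected probe set to set beside the value.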

How the results depend on the processing

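Over 16 alternatives, 0 genes passed the adjusted test with Cd74, B2m, Psmb8 or Psmb5. The number of detected members lay between 58 and 68, the class I, loading and inducible genes lowest in mouse 4 between 6 and 11 and the inducible subunits highest in mouse 8 between 2 and 3. Constitutive genes highest in mouse 1 numbered 14 with the mean of all probe sets. Detection was redone under each alternative, so these counts by mouse are not out of a fixed number of genes. The matching shares of all genes were not counted there. Members whose probe sets agreed numbered 1 of 21 under median scaling (Psmc3ip), beside 9.34% of all genes, and 3 of 27 with _x_at allowed (Calr, H2-Aa and Psma6), beside 10.2%. At an unadjusted exact permutation p under 0.05 with r above 0, the mean of all probe sets gave 0 members for Cd74, 0 for B2m and 1 for Psmb8. For Cd74, thresholds on at least 4 arrays and no filter gave 2 each, and for B2m median scaling gave 10. With 1 mouse left out the counts ran from 0 (without mouse 2 or 4) to 4 (without mouse 6) for Cd74, from 1 (without mouse 2, 4, 5, 6 or 7) to 4 (without mouse 1) for B2m, from 5 (without mouse 7) to 8 for Psmb8 and from 1 (without mouse 1) to 11 (without mouse 6) for Psmb5. The share of all genes at that level was not counted under any alternative, so these changes cannot be called particular to members. Of 281 values over 18 pairs of members 6 turned sign. Without mouse 2, H2-Eb1 and Cd74 had r = -0.11 (-0.11 to 0.42 with 1 mouse left out). With the mean of all probe sets r was -0.22 for Psma6 and B2m, -0.16 for H2-K1 and Psmb8, -0.10 for H2-T24 and Psmb8 and -0.43 for Psmb1 and Psmb5. With _x_at allowed H2-D1 and B2m had -0.18. The mean takes in probe sets under background on every array, as for Psmb8 and Tap1. The cause of the other changes was not tested. Agreement of probe sets with their mean, and detection with no filter, were not run, since neither is defined. No paired analysis was possible because all samples form 1 group.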

Other observations

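The 3 genes that matched by symbol alone were detected in every mouse. H2-Ke6 had a signal of 2077 ± 231, Psmc3ip of 413 ± 67.9 and Psme3ip1 of 1057 ± 108 (SD, n = 8 each). Among the class I heavy chain genes above background on some arrays, H2-Q5 was above it in 6 mice, with its highest signal, 123, in mouse 1 and its lowest in mouse 4, and H2-Bl was above it in 6. H2-Q10 and H2-T18 were each above background in 1 mouse.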
